A study of Mus musculus with 8 samples.

Results

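Transcripts that mark pachytene spermatocytes and spermatids were followed in spermatogenic cells of mouse testes at postnatal day 12 (P12), in 4 libraries from Brg1 cKO mice and 4 from Brg1 WT mice. The set holds 35 genes, taken by symbol from a list of known stage markers, of 28460 gene symbols in the count table, and every one of the 35 was found. Of these, 23 had enough counts to be tested and 12 did not. Brg1 cKO denotes a conditional knockout of Brg1 (gene symbol Smarca4), the motor subunit of SWI/SNF chromatin remodelers, and Brg1 WT the wild type. All mice were of mixed background, and the design text calls the 4 libraries of each genotype biological replicates. Neither the Cre driver nor the deleted part of the gene is given in the labels. Testes were digested with collagenase and trypsin and sieved, and no sort for a cell marker is named, so the libraries also hold RNA of somatic cells.

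Male germ cells enter meiosis in synchrony in the first wave after birth, and at P12 the leading cells have just reached late prophase. Pachytene is the long stage of that prophase in which homologous chromosomes are fully paired and a large testis-specific transcription program begins, driven in part by the transcription factor A-MYB. Haploid spermatids follow later, and in them CREM and other factors switch on genes for the acrosome, the flagellum and the compaction of sperm chromatin.

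Library totals ran from 20456700 to 32596000 estimated counts, and CPM denotes a gene's count relative to the TMM-adjusted total of its library. Smarca4 had 121 ± 7.55 CPM in Brg1 cKO and 347 ± 7.68 CPM in Brg1 WT (SD, n = 4 each). Its log2 fold change was -1.52 ± 0.061 (SE), with an adjusted p of 6.8e-06. Adjusted p-values throughout come from edgeR's quasi-likelihood test and the Benjamini-Hochberg method over the 16059 genes tested, with a threshold of 0.05, except where DESeq2 or a fit with no count filter (22997 genes) is named. For these genes Brg1 WT replicates 1 and 2 stood apart from the other libraries. Of the 23 tested members 12 had their highest level of all 8 libraries in Brg1 WT replicate 1 and 4 in Brg1 WT replicate 2, against 21.3% and 8.76% of all tested genes. Differences of the tested members are given with all 8 libraries and again without these 2, where 2 Brg1 WT libraries are left. Since these libraries were singled out for their high levels of the same genes, a smaller difference without them follows in part from that choice.

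Regulators of the program are CREM and A-MYB (the product of Mybl1), and promoter sequence was therefore searched for letters that these factors are known to bind. RefSeq promoters of the build GRCm38.p6, 250 bases before to 50 bases after the outermost start of each gene, were found for 27 of the 35 members. There was no entry for Adam2, Insl6, Crem, Acr, Odf1, Clgn, Catsper1 and Mybl1. Windows of 130 bases, from 160 to 31 bases before the start site, are shown for 2 members that were lower in Brg1 cKO (Hspa2 and Tekt1) and for 2 that were not called (Ldhc and Izumo1), because these hold matches. Capitals mark the cAMP response element TGACGTCA or its core TGACG, read on either strand.
Hspa2, chr12:76404210-76404339, plus strand: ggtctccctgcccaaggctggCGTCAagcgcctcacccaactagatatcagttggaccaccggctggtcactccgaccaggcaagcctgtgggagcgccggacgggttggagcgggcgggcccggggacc
Tekt1, chr11:72361913-72362042, minus strand: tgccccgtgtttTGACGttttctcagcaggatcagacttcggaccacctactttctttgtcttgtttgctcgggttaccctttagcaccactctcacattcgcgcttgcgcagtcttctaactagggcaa
Ldhc, chr7:46861103-46861232, plus strand: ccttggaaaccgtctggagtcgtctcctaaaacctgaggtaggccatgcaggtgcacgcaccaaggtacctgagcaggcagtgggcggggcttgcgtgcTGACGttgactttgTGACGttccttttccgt
Izumo1, chr7:45621651-45621780, plus strand: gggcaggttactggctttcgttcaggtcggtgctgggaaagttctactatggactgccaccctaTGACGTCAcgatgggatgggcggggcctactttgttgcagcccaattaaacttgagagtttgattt
The core was present in 8 of the 27 member promoters (29.6%) and in 20.9% of 27025 promoters of all genes. The full element, which contains the core, was in 1 member promoter, that of Izumo1 (3.70%), and in 1.85% of all. The A-MYB core AACTGCC was in 1 member promoter, that of Pgk2 (3.70%), and in 4.15% of all. Among the 5 promoters found for members lower in Brg1 cKO, 2 held the core and none the full element or the A-MYB core. The Ldhc window holds 2 copies of the core, and the promoters of Calr3 and Spaca1 also hold 2 each. Whether these matches bear on the levels of the genes was not tested.

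In all, 7 of the 23 tested members fell in Brg1 cKO and none rose, while 16 were not called. The 7 were Ybx2, Tbpl1, Hspa2, Clgn, Ccna1, Adam2 and Tekt1. Among all tested genes 20.6% were called, 11.8% lower and 8.79% higher in Brg1 cKO. At an unadjusted p under 0.05, 10 members were lower and none was higher, beside 19% and 17.7% of all tested genes. DESeq2 called the same 7 members lower and none higher, against 13.9% of genes lower and 13.9% higher. The median log2 fold change of the tested members was -0.25, beside 0.013 for all tested genes. Of the 23 members 6 had fewer than 4 Brg1 cKO libraries above the count filter of 0.392 CPM (Ccna1, Adam2, Tekt1, Spag6, Insl6 and Tssk2). The first 4 had the higher mean in Brg1 WT and so could pass through it, and 3 of them were called (Ccna1, Adam2 and Tekt1). Among the other 17 members, 4 were called. For 6 of the 23 every Brg1 cKO library lay below every Brg1 WT library, against 15.0% of all tested genes, and for none did it lie above, against 11.1%. In bulk samples, fewer cells of a stage and less RNA per cell cannot be told apart. Without Brg1 WT replicates 1 and 2, 2 members stayed called (Ybx2 and Clgn), against 2.12% of genes lower, and the median of the members was -0.037, beside 0.023 for all tested genes. At an unadjusted p under 0.05 there were then 6 members lower and 1 higher (Acrv1), beside 12.7% and 11.3% of all tested genes.

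**Figure D1:**
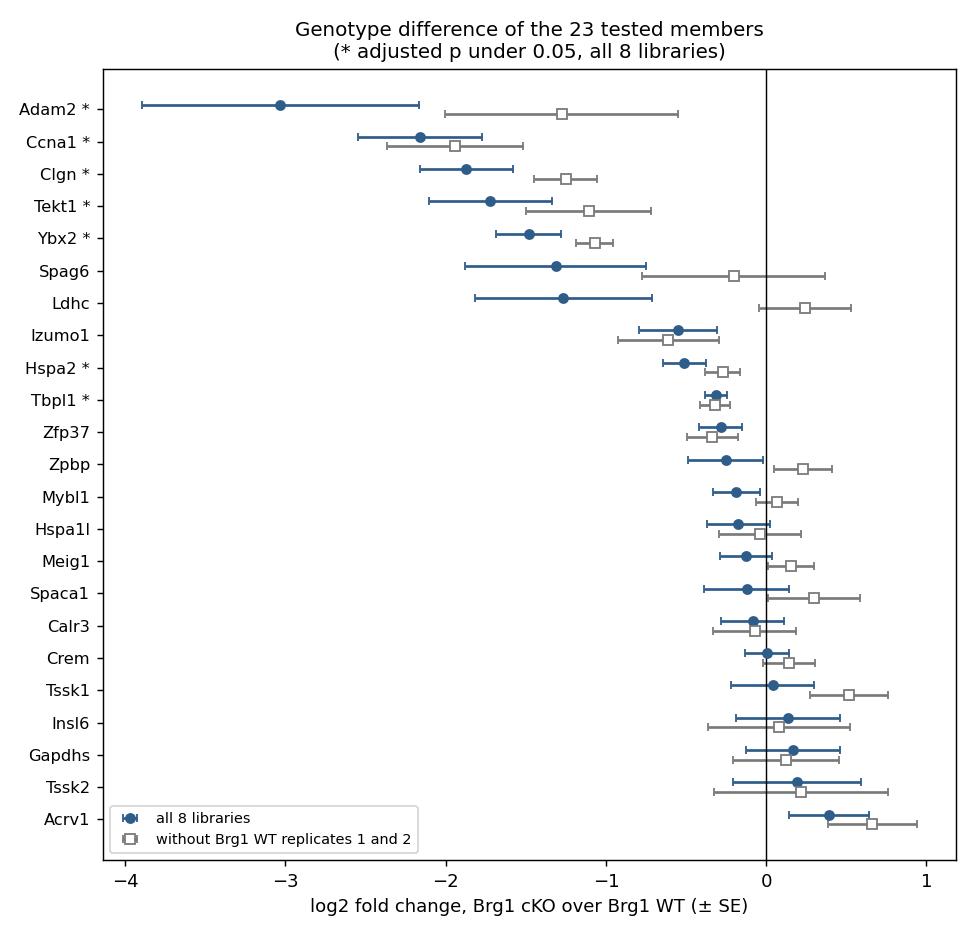
Log2 fold changes (Brg1 cKO over Brg1 WT, horizontal axis, ± SE) of the 23 tested members, with all 8 libraries (filled circles) and without Brg1 WT replicates 1 and 2 (open squares). Adam2 lies farthest to the left at -3.03 and moves to -1.28 without those libraries. Ccna1 (-1.94), Clgn (-1.25), Tekt1 (-1.11) and Ybx2 (-1.07) also stay at or below -1.07, and of these Clgn and Ybx2 stay called. Ldhc is at -1.27 with all libraries and at 0.24 without those 2.

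Among members that regulate transcription or messenger RNA, 2 of 5 tested fell and none rose, beside 11.8% and 8.79% of all tested genes. Ybx2 encodes an RNA-binding protein of germ cells that stabilizes stored messengers. It had 16.3, 15.3, 17.4 and 17.7 CPM in Brg1 cKO replicates 1 to 4, against 63.4, 52.6, 38.8 and 31.4 CPM in Brg1 WT replicates 1 to 4. The Brg1 cKO libraries were close to each other, and the lowest Brg1 WT library lay well above them. The log2 fold change was -1.48 ± 0.20 (SE, adjusted p = 0.0034), and -1.07 ± 0.12 without Brg1 WT replicates 1 and 2 (adjusted p = 0.013).

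Tbpl1 encodes a relative of the TATA-binding protein that spermatids need for their maturation. Its level was 41.7, 42.5, 37.7 and 46.0 CPM in the Brg1 cKO libraries, against 53.4, 49.9, 52.9 and 52.1 CPM in the Brg1 WT libraries. The groups did not overlap, and Brg1 WT replicates 1 and 2 did not stand apart for this gene. The difference was small, at -0.31 ± 0.071 on the log2 scale (SE, adjusted p = 0.017), and its sign turned relative to the median of 12 pan-germ cell genes (0.034) or of 15 genes of undifferentiated spermatogonia (0.18). The value without Brg1 WT replicates 1 and 2 was -0.32 ± 0.092 (adjusted p = 0.10). Estimates of Tbpl1 and Zfp37 were not whole in any of the 8 libraries and those of Mybl1 in 7, so part of their reads may belong to other genes.

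The genes for the 2 factors named above were not called. Mybl1 had 48.6, 38.3, 51.1 and 52.8 CPM in Brg1 cKO, against 67.6, 58.2, 44.8 and 46.4 CPM in Brg1 WT. Brg1 WT replicates 3 and 4 lay within the Brg1 cKO range (log2 fold change -0.19 ± 0.15, adjusted p = 0.39). Crem had 13.9 ± 2.15 CPM in Brg1 cKO and 13.9 ± 1.74 CPM in Brg1 WT (SD, n = 4 each), with a log2 fold change of 0.0051 ± 0.14 (adjusted p = 0.98). The values were 0.070 ± 0.13 for Mybl1 and 0.14 ± 0.16 for Crem without Brg1 WT replicates 1 and 2. Zfp37, a zinc finger gene, had 9.78 ± 1.38 and 11.9 ± 1.37 CPM in Brg1 cKO and Brg1 WT (log2 fold change -0.28 ± 0.13, adjusted p = 0.16, and -0.34 ± 0.16 without Brg1 WT replicates 1 and 2). Pou5f2, a POU domain factor of germ cells, was below the filter, with 8, 3, 3 and 1 estimated counts in Brg1 cKO and 5, 11, 6 and 4 in Brg1 WT.

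**Figure D2:**
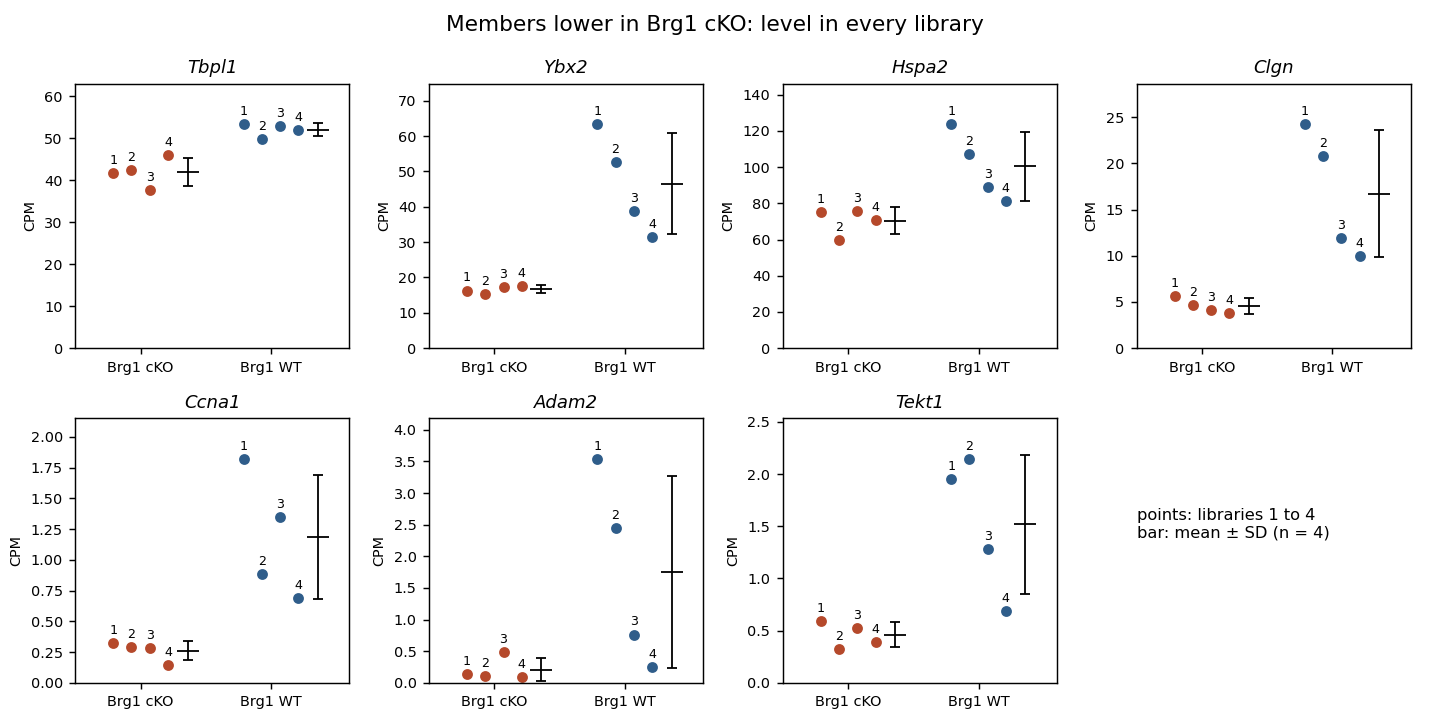
CPM (linear vertical axes from 0) of the 7 members lower in Brg1 cKO, with 1 point per library numbered by replicate and bars for the mean ± SD of 4. Brg1 WT replicates 1 and 2 hold the top points of Ybx2, Hspa2, Clgn, Adam2 and Tekt1, and the genotypes overlap only for Adam2. The difference of Tbpl1 turns positive relative to pan-germ cell genes or genes of undifferentiated spermatogonia.

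Chaperones, metabolic enzymes and the germ line cyclin had 3 called members, all lower, of 8 tested, beside 11.8% of all tested genes. Of these, Ccna1 could pass the count filter through its higher level in Brg1 WT. Hspa2, whose product is the HSP70 chaperone that spermatocytes need to finish meiotic prophase, had 75.3, 59.8, 76.0 and 70.7 CPM in Brg1 cKO, against 123.9, 107.1, 89.1 and 81.5 CPM in Brg1 WT. All Brg1 cKO libraries were lower, and the log2 fold change was -0.51 ± 0.13 (SE, adjusted p = 0.027). The call was close to the threshold. Leaving out Brg1 cKO replicate 1, 2 or 3 gave a log2 fold change of -0.54, -0.44 or -0.55 with an adjusted p of 0.057, 0.054 or 0.052. Leaving out Brg1 WT replicate 1 or 2 gave -0.39 or -0.47 (adjusted p = 0.057 or 0.074). It was -0.27 ± 0.11 without Brg1 WT replicates 1 and 2 (adjusted p = 0.18), and -0.16 and -0.024 relative to pan-germ cell genes and to genes of undifferentiated spermatogonia (adjusted p = 0.31 and 0.88).

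Clgn encodes calmegin, a chaperone of the endoplasmic reticulum through which sperm surface proteins of the ADAM family fold. Levels were 5.68, 4.70, 4.09 and 3.81 CPM in Brg1 cKO, against 24.3, 20.8, 11.9 and 9.97 CPM in Brg1 WT. No library of Brg1 cKO reached the lowest of Brg1 WT. The log2 fold change was -1.87 ± 0.29 (SE, adjusted p = 0.0050), and -1.25 ± 0.20 without Brg1 WT replicates 1 and 2 (adjusted p = 0.031). Calr3, the testis calreticulin, had 2.78 ± 0.61 CPM in Brg1 cKO and 2.95 ± 0.20 CPM in Brg1 WT (SD, n = 4 each) and was not called (log2 fold change -0.084 ± 0.20, adjusted p = 0.78, and -0.071 ± 0.26 without Brg1 WT replicates 1 and 2).

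Ccna1 encodes cyclin A1, which spermatocytes need for the first meiotic division. It was measured on few reads, with 7, 8, 7 and 3 estimated counts in Brg1 cKO and 54, 23, 44 and 17 in Brg1 WT. In CPM this was 0.32, 0.29, 0.28 and 0.15 in Brg1 cKO, against 1.82, 0.88, 1.34 and 0.69 in Brg1 WT, with no overlap. Its log2 fold change was -2.16 ± 0.39 (SE, adjusted p = 0.0073), and -1.94 ± 0.42 without Brg1 WT replicates 1 and 2 (adjusted p = 0.054).

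Testis forms of glycolytic enzymes were not called. Ldhc, the sperm lactate dehydrogenase, was singled out after its values were seen. It had 1.05, 1.46, 1.52 and 1.09 CPM in Brg1 cKO, against 5.53, 4.68, 1.16 and 1.02 CPM in Brg1 WT. Brg1 WT replicates 1 and 2 were high, while Brg1 WT replicate 3 lay within the Brg1 cKO range and Brg1 WT replicate 4 just under it. The log2 fold change was -1.27 ± 0.55 (SE, adjusted p = 0.13), and 0.24 ± 0.29 without Brg1 WT replicates 1 and 2 (adjusted p = 0.65). Gapdhs, the sperm glyceraldehyde phosphate dehydrogenase, had 1.29 ± 0.39 and 1.16 ± 0.32 CPM in Brg1 cKO and Brg1 WT (log2 fold change 0.17 ± 0.29, adjusted p = 0.70, and 0.12 ± 0.33 without Brg1 WT replicates 1 and 2). Pgk2, the phosphoglycerate kinase of late spermatocytes and spermatids, had at most 1 estimated count in a Brg1 cKO library and at most 2 in a Brg1 WT library. Hspa1l, whose reads can be shared with its close HSP70 relatives (estimates not whole in 7 of 8 libraries), and Insl6, a peptide of the insulin family, had log2 fold changes of -0.17 ± 0.20 and 0.14 ± 0.32 (adjusted p = 0.55 and 0.79). Without Brg1 WT replicates 1 and 2 these were -0.037 ± 0.26 and 0.083 ± 0.44.

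Acrosome and sperm surface genes had 1 called member of 5 tested, which was lower, beside 11.8% of all tested genes. That member, Adam2, could pass the count filter through its higher level in Brg1 WT. Adam2 encodes fertilin beta, a sperm surface protein that takes part in fertilization. There were 3, 3, 12 and 2 estimated counts in Brg1 cKO, against 105, 64, 25 and 6 in Brg1 WT. As CPM these were 0.14, 0.11, 0.48 and 0.099 in Brg1 cKO and 3.54, 2.45, 0.76 and 0.24 in Brg1 WT. Brg1 WT replicate 4 lay below Brg1 cKO replicate 3, and the highest Brg1 WT library was 14.5 times the lowest. The log2 fold change was -3.03 ± 0.86 (SE, adjusted p = 0.039). Leaving out Brg1 cKO replicate 1, 2 or 4 gave -2.89, -2.80 or -2.83, no longer called (adjusted p = 0.10, 0.086 or 0.077). Leaving out Brg1 WT replicate 1 or 2 gave -2.43 or -2.82 (adjusted p = 0.089 or 0.086), and the fit with no count filter gave -3.03 (adjusted p = 0.060). Without both Brg1 WT replicates 1 and 2 the log2 fold change was -1.28 ± 0.73 (adjusted p = 0.32).

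Zpbp and Spaca1, both needed to shape the acrosome, were not called. Zpbp had 3.89, 3.75, 4.49 and 3.76 CPM in Brg1 cKO, against 6.75, 5.41, 3.42 and 3.38 CPM in Brg1 WT (adjusted p = 0.47). Spaca1 had 1.69, 2.70, 1.68 and 2.03 CPM in Brg1 cKO, against 2.70, 2.84, 1.83 and 1.47 CPM in Brg1 WT (adjusted p = 0.77). For both genes Brg1 WT replicates 1 and 2 were the top libraries, and the log2 fold changes of -0.25 ± 0.24 and -0.12 ± 0.27 became 0.23 ± 0.18 and 0.30 ± 0.29 without them. Acrv1, which encodes an acrosomal antigen, had 1.28 ± 0.16 CPM in Brg1 cKO and 0.97 ± 0.28 CPM in Brg1 WT (SD, n = 4 each, log2 fold change 0.39 ± 0.25, adjusted p = 0.28). Izumo1, the sperm ligand of the egg receptor, had 0.96 ± 0.27 and 1.41 ± 0.13 CPM in Brg1 cKO and Brg1 WT (log2 fold change -0.55 ± 0.24, adjusted p = 0.13). Without Brg1 WT replicates 1 and 2, Acrv1 was at 0.66 ± 0.28 (adjusted p = 0.20) and Izumo1 at -0.61 ± 0.32 (adjusted p = 0.28). Estimates of Acrv1 and Izumo1 were likewise not whole in any of the 8 libraries.

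**Figure D3:**
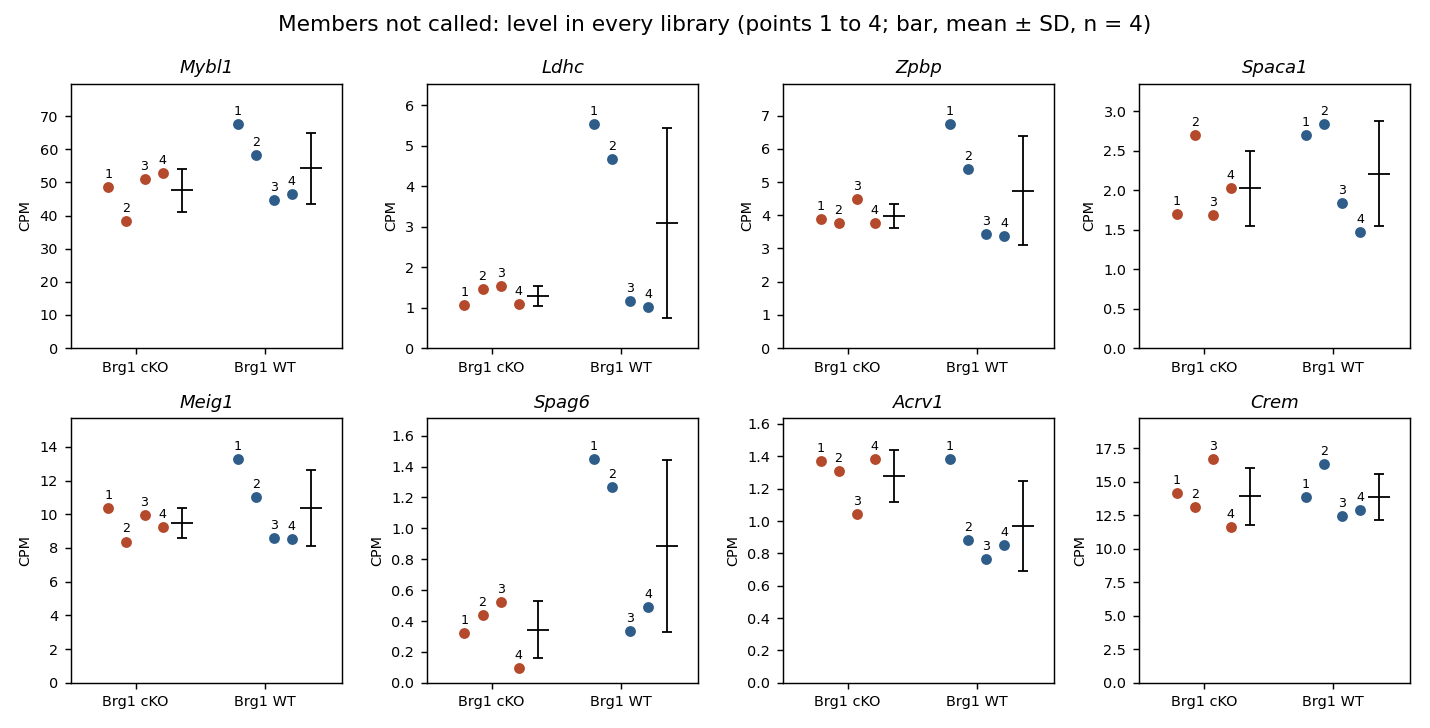
CPM (linear vertical axes from 0) of 8 members that were not called (Ldhc, Spag6, Acrv1 and Crem chosen after their values were seen), with 1 point per library numbered by replicate and bars for the mean ± SD of 4. Brg1 WT replicates 1 and 2 are the top Brg1 WT libraries for all 8 genes, with 5.53 and 4.68 CPM for Ldhc. The genotypes overlap for each of the 8.

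Flagellum genes and spermatid kinases had 1 called member of 5 tested, which was lower, beside 11.8% of all tested genes. That member, Tekt1, could pass the count filter through its higher level in Brg1 WT. Tekt1 encodes a tektin, a filament protein inside axonemal microtubules. It had 0.60, 0.33, 0.52 and 0.40 CPM in Brg1 cKO, against 1.96, 2.15, 1.28 and 0.69 CPM in Brg1 WT. These levels stand on 8 to 13 estimated counts in Brg1 cKO libraries and 17 to 58 in Brg1 WT libraries, and the groups did not overlap. The log2 fold change was -1.72 ± 0.38 (SE, adjusted p = 0.016), and -1.11 ± 0.39 without Brg1 WT replicates 1 and 2 (adjusted p = 0.15).

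Meig1, needed to build the sperm tail, had 10.4, 8.38, 9.95 and 9.25 CPM in Brg1 cKO, against 13.3, 11.0, 8.59 and 8.55 CPM in Brg1 WT (adjusted p = 0.60). Tssk1, a spermatid kinase, had 1.42, 1.64, 1.80 and 1.68 CPM in Brg1 cKO, against 1.86, 2.22, 1.19 and 1.10 CPM in Brg1 WT (adjusted p = 0.93). For Tssk1 all Brg1 cKO libraries lay between the higher and the lower pair of Brg1 WT libraries, and for Meig1 all but Brg1 cKO replicate 2, the lowest library. The log2 fold changes were -0.13 ± 0.16 for Meig1 and 0.041 ± 0.26 for Tssk1, and 0.15 ± 0.14 and 0.52 ± 0.25 without Brg1 WT replicates 1 and 2. Spag6, of the central apparatus of the flagellum, was singled out after its values were seen. It had 0.32, 0.44, 0.52 and 0.099 CPM in Brg1 cKO, against 1.45, 1.27, 0.34 and 0.49 CPM in Brg1 WT (log2 fold change -1.31 ± 0.56, adjusted p = 0.12). Brg1 WT replicates 1 and 2 were the highest, and without them the value was -0.20 ± 0.57 (adjusted p = 0.86). The symbol Spag6 now stands for one of a pair of related genes, and the count table does not say which of them it covers. Tssk2, a close relative of Tssk1, had 0.40 ± 0.063 and 0.36 ± 0.17 CPM in Brg1 cKO and Brg1 WT (log2 fold change 0.19 ± 0.40, adjusted p = 0.76, and 0.22 ± 0.55 without Brg1 WT replicates 1 and 2), and estimates of the Tssk pair were not whole in 6 libraries each.

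The transition proteins and protamines, which replace histones in sperm chromatin, had no tested member of 4. Tnp1 had 2, 2, 3 and 2 estimated counts in Brg1 cKO, against 6, 3, 14 and 4 in Brg1 WT. Prm1 had 2, 1, 2 and 0 in Brg1 cKO and 2, 3, 1 and 0 in Brg1 WT, and Tnp2 and Prm2 reached no more than 1 in a Brg1 cKO library and 3 in a Brg1 WT library. Catsper1, a sperm calcium channel gene, was listed at 0 in every library, which allows up to 3 counts, or 0.0917 to 0.148 CPM depending on the library. Such limits cover counting error only.

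Acr, the acrosomal protease proacrosin, had 3, 1, 1 and 3 estimated counts in Brg1 cKO, against 12, 19, 19 and 6 in Brg1 WT. Akap4, an X-linked scaffold of the fibrous sheath, had 3, 0, 1 and 4 in Brg1 cKO, against 8, 17, 17 and 7 in Brg1 WT. For these genes, and for Spink2, an inhibitor of acrosomal proteases with 1, 4, 4 and 1 counts in Brg1 cKO and 7, 7, 7 and 6 in Brg1 WT, the genotypes did not overlap. No other member of the 12 below the filter showed this. Among all tested genes, every Brg1 cKO library lay below every Brg1 WT library for 15.0%, and no such share was computed below the filter. Acr, Akap4 and Spink2 were not tested with the count filter. In a fit with no filter, the log2 fold changes were -2.44 ± 0.57 for Acr (SE, adjusted p = 0.018), -2.24 ± 0.69 for Akap4 (adjusted p = 0.056) and -1.17 ± 0.53 for Spink2 (adjusted p = 0.18). These genes were picked by the same counts. No other member below the filter was called (adjusted p of 0.19 or more, Catsper1 not fitted). Log2 fold changes were -1.63 for Spata16, -1.23 for Tnp1, -1.17 for Tnp2 and -0.93 for Pgk2. Those of Pou5f2, Odf1, Prm1 and Prm2 were -0.53, -0.23, -0.012 and 0.16. Over all 22997 genes that fit called 1685 lower and 1161 higher. Spata16, an acrosome formation gene, had 2, 2, 1 and 1 counts in Brg1 cKO and 12, 5, 7 and 0 in Brg1 WT, and Odf1, of the outer dense fibres, had 1, 6, 7 and 2 in Brg1 cKO and 8, 3, 5 and 6 in Brg1 WT.

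**Figure D4:**
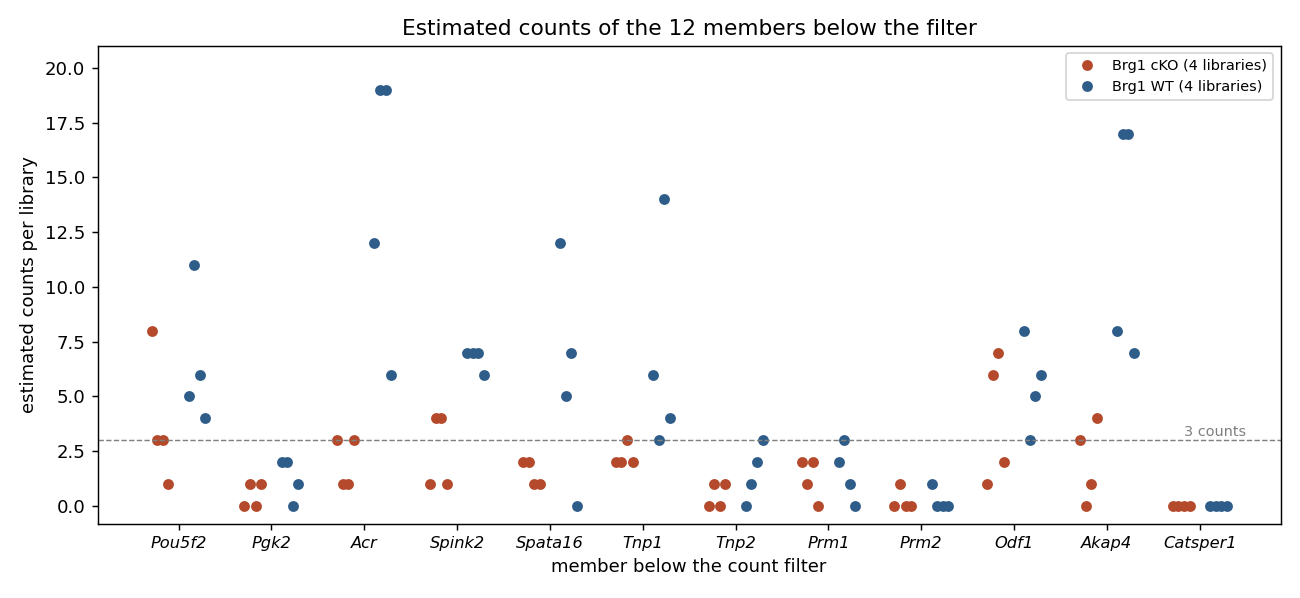
Estimated counts per library (vertical axis) of the 12 members below the count filter, with 1 point per library, Brg1 cKO left of Brg1 WT for each gene. Acr, Spink2 and Akap4 show no overlap between the genotypes, while protamine, Tnp2, Pgk2 and Catsper1 points lie at or under 3 counts (dashed line).

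Variation among Brg1 WT libraries was wide for these genes. The ratio of the highest to the lowest library had a median of 1.47 within Brg1 cKO and 1.94 within Brg1 WT over the 23 tested members, beside 1.32 and 1.27 over all tested genes. It passed 2 for 4 members in Brg1 cKO and for 10 in Brg1 WT, or 17.4% and 43.5%, beside 16.8% and 12.8% of all tested genes. The 10 included Adam2, Ldhc (5.44), Spag6 (4.32) and Tssk2 (3.73), which also have low counts. So do Tekt1 (3.10), Ccna1 (2.63), Tssk1 (2.02) and Gapdhs (2.01). The rest were Clgn (2.43) and Ybx2 (2.02), and the shares of all tested genes were not matched for level. Brg1 WT replicate 4 was the lowest Brg1 WT library for 12 of the 23 members, beside 24.2% of all tested genes. Mean log2 CPM of the members was 1.55, 1.48, 1.57 and 1.32 in Brg1 cKO, against 2.38, 2.25, 1.77 and 1.67 in Brg1 WT. All Brg1 WT libraries were above all Brg1 cKO libraries on this mean, and Brg1 WT replicates 3 and 4 were the nearest to Brg1 cKO. The mean includes Ccna1, Adam2, Tekt1 and Spag6, which could pass the count filter through their higher level in Brg1 WT. A mean without these genes was not computed.

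Among 49 other pachytene and spermatid genes in the table, 23 were tested, and 9 of them fell (39.1%), beside 11.8% of all tested genes. None rose, and none was higher at an unadjusted p under 0.05 either. The median log2 fold change of the 23 was -0.44. Spag4, a nuclear envelope protein of spermatids, had 2.15, 3.10, 2.53 and 2.57 CPM in Brg1 cKO, against 5.67, 4.68, 5.47 and 5.13 CPM in Brg1 WT (log2 fold change -1.01 ± 0.16 SE, adjusted p = 0.0048). Tcfl5, a transcription factor of pachytene spermatocytes, had 29.0 ± 3.35 and 44.2 ± 4.78 CPM in Brg1 cKO and Brg1 WT (SD, n = 4 each, adjusted p = 0.0064). Rfx2, a factor for cilium and spermatid genes, had 7.78 ± 0.22 and 12.4 ± 2.63 CPM in Brg1 cKO and Brg1 WT (adjusted p = 0.016). Without Brg1 WT replicates 1 and 2, 1 gene of this list was called, lower, beside 2.12% of all tested genes. The list median was then -0.24.

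Genes of the stage before, 20 of meiotic entry, chromosome axis, synapsis and early recombination, were all tested. As many as 15 fell (75%, beside 11.8% of all tested genes) and 5 were not called. Every log2 fold change was below 0, with a median of -0.65. Spo11, which makes the meiotic DNA breaks, had 5.49, 5.10, 4.17 and 5.64 CPM in Brg1 cKO, against 18.5, 13.4, 10.3 and 8.67 CPM in Brg1 WT (log2 fold change -1.32 ± 0.23 SE, adjusted p = 0.0066). Smc1b, a meiotic cohesin, and Msh5, a crossover factor, had log2 fold changes of -0.56 ± 0.089 and -0.87 ± 0.14 (adjusted p = 0.0050 each). Without Brg1 WT replicates 1 and 2 the median was -0.49, with 3 of these genes called lower, beside 2.12% of all tested genes. At an unadjusted p under 0.05, 15 were then lower, beside 12.7% of all tested genes. Whether the early and the late genes differ in their response was not tested.

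**Figure D5:**
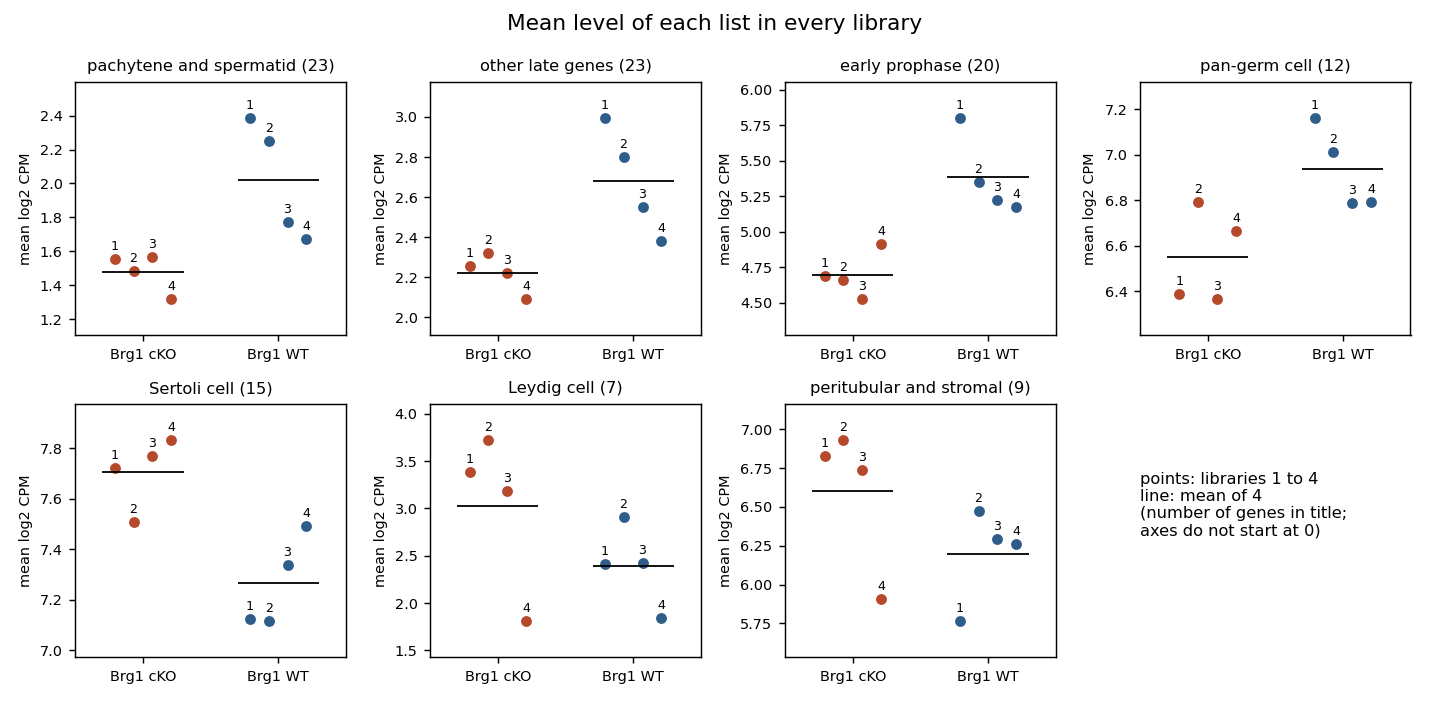
Mean log2 CPM (vertical axes, which do not start at 0) of each gene list in every library, with 1 point per library numbered by replicate and a line at the mean of 4. For the late and early prophase lists no Brg1 cKO point reaches the lowest Brg1 WT point, with Brg1 WT replicate 1 highest. The pachytene and spermatid list includes members that could pass the count filter through their higher level in Brg1 WT. The Sertoli cell list is higher in all Brg1 cKO libraries.

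The somatic marker lists had median log2 fold changes of 0.39 to 0.66, but only that of Sertoli cells had most of its markers called. Among all tested genes 8.79% were called higher and 11.8% lower. Of 15 Sertoli cell markers 8 rose and none fell, with a median log2 fold change of 0.44, and their summed level was 6875 to 9077 CPM in Brg1 cKO and 5372 to 7094 CPM in Brg1 WT. These sums overlap, and none of the 15 was at 0. Sertoli marker levels were lowest in Brg1 WT replicates 1 and 2 on the mean log2 scale (7.13 and 7.12), where the pachytene and spermatid members were highest. Leydig cell markers had 1 higher and none lower of 7 (summed 168 to 206 CPM in Brg1 cKO and 133 to 142 CPM in Brg1 WT). Peritubular and stromal markers had 2 higher and none lower of 9 (1736 to 2808 CPM in Brg1 cKO and 1191 to 2067 CPM in Brg1 WT), and none of 7 macrophage and endothelial markers was called (178 to 381 CPM in Brg1 cKO and 169 to 255 CPM in Brg1 WT). The 12 pan-germ cell genes had 2 lower and none higher, with a median of -0.35 (summed 1428 to 1908 CPM in Brg1 cKO and 1893 to 2452 CPM in Brg1 WT). No marker of these lists was at 0 in every library. Without Brg1 WT replicates 1 and 2, 2 Sertoli cell markers were called higher and none lower, with a median log2 fold change of 0.27. No Leydig, peritubular and stromal, or macrophage and endothelial marker was then called, with medians of 1.07, 0.40 and 0.20. Of the pan-germ cell genes 1 was lower in that fit, with a median of -0.15. Over all tested genes it called 341 lower and 103 higher. Markers of undifferentiated spermatogonia, the stem and progenitor cells that precede meiosis, moved both ways. Of 15, 7 fell, 2 rose and 6 were not called, with log2 fold changes of -2.08 to 0.94 and a median of -0.49, farther below 0 than that of the pachytene and spermatid members (-0.25). Their summed level was 413 to 532 CPM in Brg1 cKO and 538 to 699 CPM in Brg1 WT. Without Brg1 WT replicates 1 and 2, 2 of these markers were called lower and none higher, with a median of -0.41. The part of these cells in the differences of the members was not tested. Taking the pan-germ cell median as no change gave 5 members lower and 1 higher (Acrv1) beside the 7 and 0 above, and 579 genes lower and 8284 higher beside 1900 and 1412. Ybx2, Clgn, Ccna1, Adam2 and Tekt1 were called lower on that scale, with log2 fold changes of -1.14, -1.52, -1.82, -2.69 and -1.38. That median is a constant from the same fit, and the 12 genes ran from -0.98 to -0.18, a spread that the calls leave out. Ccna1, Adam2 and Tekt1 could pass the count filter through their higher level in Brg1 WT. Whether these members fell more than pan-germ cell genes was not tested.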

How the data were processed

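Strand-specific mRNA-seq libraries were made from Trizol-extracted RNA, per the labels' protocols. The authors deposited estimated counts, 1 row a gene symbol, which carry no scaling. Kallisto 0.42.5, edgeR and the build mm9 are named per the submitters' processing notes, with no annotation named and no account of how transcripts were summed to symbols. Groups and replicate numbers came from the sample titles.

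Estimated counts (34.4% of them not whole, at a tolerance of 0.01) were rounded to whole numbers. Genes were filtered with filterByExpr by genotype, scaled by TMM and fitted in edgeR 4.0.16 (robust quasi-likelihood, genotype the only term, R 4.3.3). The standard error is the absolute log2 fold change over the square root of F. For list levels, log2 CPM (prior count 2) was averaged over genes. All libraries differed by more than sampling noise (lowest chi-square per degree of freedom 21.6). On simulated counts over 16059 genes the test recovered 68% of genes made 2-fold lower and 36% of those made 1.5-fold lower, while 7 among 119 calls were of genes left alone. Few genes were altered there, drawn over all levels, and the data gave 3312 calls. The recovered shares are therefore not the power for the members. Low totals limit the precision of genes with few counts.

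The members and gene lists were chosen with earlier results of these data known. Full values were given for members with an adjusted p under 0.05 and for the 2 members of each role with the highest average log2 CPM. Up to 3 called genes with the smallest adjusted p were named from the lists of other late genes and early prophase genes. Exceptions are stated where they occur. Alternatives were DESeq2 1.42.0, other size factors and filters, the replicate number as a block, leaving out libraries, and list medians taken as no change. Gene lists are described by counts and medians, with no test of a list. Promoter sequences are from RefSeq (GRCm38.p6), matched by symbol.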

Additional observations from a re-analysis of the deposited data

Results flagged for a closer look

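Among 48 sets of 4 libraries checked (the 23 tested members and Smarca4 in each genotype), 2 held a library set off from the other 3 by more than Dixon's critical value. Chance gives about 1 in 20. Adam2 had 0.481 CPM in Brg1 cKO replicate 3, against 0.0989 to 0.137 CPM in the other Brg1 cKO libraries, a gap of 0.900 of the range that stands on 12 estimated counts. Insl6 had 0.611 CPM in Brg1 WT replicate 4, against 0.489 to 0.506 CPM in Brg1 WT replicates 1 to 3, a gap of 0.859 of the range.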

How the results depend on the processing

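Ybx2 and Clgn were lower and called under each of the 18 alternatives, with adjusted p no higher than 0.019 and 0.031 by edgeR or DESeq2. Leaving out each library in turn gave 5 to 7 members lower and 0 higher, with 1057 to 1985 genes lower and 559 to 1485 higher over all genes. The count of higher genes was 559, 700, 785, 649 and 904 without Brg1 cKO replicates 1 and 3 and Brg1 WT replicates 1, 2 and 3, each left out alone, and that of lower genes was 1057, 1204, 1147 and 1248 without Brg1 cKO replicates 1 and 3 and Brg1 WT replicates 2 and 3. DESeq2 called 2228 genes higher. With at least 1 CPM in 4 libraries 4 members were lower, since Ccna1, Adam2 and Tekt1 were no longer tested. Without Brg1 WT replicates 1 and 2, 2 members, 341 genes lower and 103 higher were called, and Mybl1 (0.070), Ldhc (0.24), Spaca1 (0.30), Zpbp (0.23) and Meig1 (0.15) turned positive. The cause was not tested. Relative to the pan-germ cell median 1 member was higher, with 8284 genes higher and 579 lower, and Mybl1 (0.16), Tbpl1 (0.034), Zfp37 (0.062), Hspa1l (0.17), Calr3 (0.26), Spaca1 (0.22), Zpbp (0.093) and Meig1 (0.22) turned positive, by the shift of 0.35 itself. Relative to undifferentiated spermatogonia 2 members were higher (Acrv1 and Crem), with 10491 genes higher and 417 lower, and the same 8 were at 0.30, 0.18, 0.20, 0.31, 0.40, 0.36, 0.23 and 0.36. Relative to the Sertoli cell median 17 members were lower, with 9475 genes lower and 47 higher, and Crem (-0.44), Gapdhs (-0.27), Insl6 (-0.30), Acrv1 (-0.050), Tssk1 (-0.40) and Tssk2 (-0.25) turned negative. Upper-quartile factors gave Crem -0.0074. Members that changed sign when 1 library was left out were uncalled throughout, with ranges of -0.095 to 0.10 for Crem, -0.034 to 0.37 for Insl6, -0.055 to 0.32 for Gapdhs, -0.097 to 0.25 for Tssk1, -0.064 to 0.49 for Tssk2, -0.17 to 0.053 for Calr3, -0.21 to 0.021 for Meig1 and -0.30 to 0.026 for Spaca1. Same-numbered libraries deviated together with correlations of -0.367 to 0.152, so the numbers were not taken as pairs. With the replicate number as a block, 1169 of 16059 genes were lower and 745 higher, and 5 members were lower (Tbpl1 adjusted p = 0.050, Adam2 adjusted p = 0.070).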
